A study of Rattus norvegicus with 6 samples.

Results

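The baseline transcriptome of vehicle-treated neuronal progenitor cells of the rat cerebral cortex was described from 3 of the 6 arrays of the study. The cells were prepared at embryonic day E15.5, grown in 20 ng/ml basic fibroblast growth factor (bFGF) on dishes coated with fibronectin, and given the solvent dimethyl sulphoxide (DMSO) for 48 h. The other 3 arrays held cells grown the same way and given 1 µM corticosterone for 48 h, and per the series design text the samples form 3 couples of a vehicle and a hormone sample. Arrays with the same number in their titles are taken here as a couple. The labels do not say how many animals or cultures a sample holds, how often the cells were passaged or which share of them were progenitors, and cells without DMSO and uncultured cortex are not analysed here. The 3 vehicle arrays are called vehicle 1, 2 and 3, and signals are written in that order.

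Radial glia and related neural progenitors line the ventricles of the embryonic brain, divide there and give rise to neurons first and to glia later. In culture bFGF acts through fibroblast growth factor receptors and the mitogen-activated kinase pathway, keeps such cells dividing and is known to favour genes of the oligodendrocyte lineage. Progenitors of the cortex carry transcription factors of the dorsal telencephalon, while those of other brain regions carry other sets of regional factors.

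The measured quantity was the MAS5 signal of a probe set, a linear intensity, and each gene with its own symbol was represented by its brightest probe set, which gave 14217 named genes. A signal counted as above background where it exceeded 24.0, the level under which 95% of the values of 27 bacterial control probe sets lay on these 3 arrays, none of them with a spiked target. A gene was called high where its signal lay in the top 10% of named genes on all 3 arrays, which took a signal of at least 2692, 2563 and 2592. Signal depends on the probes as well as on the transcript, so these classes give the place of a signal on the array and not the order of transcript abundance between genes. Of the named genes 10766 (75.7%) were above background on all 3 arrays, 1705 (12%) were at background on all 3, and 1264 (8.89%) were high. The counts for each list below are to be read beside these shares, and a count near them says little about the list. A gene with a signal between 1000 and 10000 had a median coefficient of variation over the 3 arrays of 8.37% (3568 genes), against 30.0% between 24.0 and 100 (2574 genes) and 63.0% up to 24.0 (2567 genes).

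The arrays were alike in their overall levels. The median signal was 108, 122 and 119, and the share of named genes above background was 80.4%, 82.4% and 82.4%. For Actb the 3′ probe set exceeded the 5′ one by a factor of 1.55, 2.11 and 2.12, and for Gapdh by 1.15, 1.17 and 1.25. The 18 probe sets of spiked controls had geometric means of 1401, 1851 and 2060, so vehicle 1 was the lowest in each of these measures. Across 9904 genes past a filter on low signals, log2 signals of the vehicle arrays correlated by 0.9782 between 1 and 2, 0.9852 between 1 and 3, and 0.9849 between 2 and 3. These values are descriptions, since the points are genes of the same arrays. The list of 43 genes of liver, pancreas, muscle, gut, pituitary, kidney, testis, lens and skin served as a second look at the background. Of these genes 23 were at background on all 3 arrays and 9 were above it on all 3, among them the skin keratin Krt10 (257, 285 and 285), and 90% of their values lay under a signal of 70.0. Signals between 24.0 and 70.0 are therefore given here as numbers, with no statement that a gene was expressed.

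Genes that mark neural stem cells and radial glia were above background without exception among the 28 listed genes with a probe set, and 12 of them were high (75.7% and 8.89% among all named genes). Fabp7, the brain fatty acid-binding protein of radial glia, had signals of 20410, 22250 and 23780 (mean 22150 ± 1684, SD, n = 3 arrays, as for each SD given here). Vim, the intermediate filament vimentin, had signals of 20450, 25520 and 29190 (25060 ± 4387). Both genes stood near the top of the range on every array. Sox2, the transcription factor that maintains the neural stem cell state, had signals of 9658, 7528 and 8910 (8699 ± 1081). Nes, which encodes the progenitor filament nestin, was at 2613, 2954 and 2913 (2827 ± 186) and was in the top 10% on vehicle 2 and 3 and just under it on vehicle 1. The 3 arrays lay within a factor of 1.43 of each other for all 4 of these markers.

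Other radial glial genes ranged from high signals to faint ones. The glutamate transporter Slc1a3 was at 10850, 14430 and 14640, and the receptor tyrosine phosphatase Ptprz1 at 12700, 11990 and 13460. The transcription factor Sox3 was at 3272, 3392 and 3272, whereas Sox1, of the same family, was at 51.6, 53.6 and 54.6, a signal within the range of the other-tissue genes. Pax6, a transcription factor of cortical radial glia, had intermediate signals of 972, 1173 and 791 (979 ± 191). Hes1 and Hes5, the transcriptional repressors downstream of Notch, were at 523, 504 and 739 and at 236, 210 and 257.

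The next steps of neurogenesis were uneven. Eomes, the transcription factor of intermediate progenitors of the cortex, was at background on all 3 arrays, with signals of 7.46, 6.29 and 9.30. Neurog2, a proneural factor of the dorsal telencephalon, was at 19.3, 14.8 and 29.6 and passed the limit on vehicle 3 alone. In contrast Hes6, an inhibitor of Hes1 that accompanies neuronal commitment, was high at 3463, 3760 and 2892. The Notch ligand Dll1 was at 938, 539 and 534, and Dll3 at 401, 273 and 337. Of 13 genes in the list 11 (84.6%, against 75.7% of all named genes) were above background. Of the others 1 was mixed (above it on some arrays and not on others) and 1 was at background.

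Genes of differentiating neurons were all above background (21 of 21), with 2 of them high. Map2, a microtubule-associated protein of dendrites, was at 9361, 8287 and 9223, and Gap43, a growth cone protein, at 3286, 3393 and 3840. Tubb3, the neuronal β-tubulin, was lower, at 247, 341 and 399, and so was Dcx, the microtubule-binding protein of migrating neurons, at 183, 164 and 175. For Dcx and Gap43 another probe set of the gene was at background. The neurofilament gene Nefl was at 32.9, 37.7 and 30.0, within the range of the other-tissue genes. Markers of neuron classes were mostly faint. Tbr1, a factor of early cortical projection neurons, was at background (15.2, 15.1 and 17.1), as were the GABA transporter Slc32a1 and the interneuron gene Pvalb, and the GABA-synthesising enzyme Gad1 was at 19.6, 27.1 and 3.61. Of 10 inhibitory neuron genes 2, Npy (132, 158 and 120) and Maf (202, 393 and 234), were above background on all 3 arrays, and 6 were mixed. Of 15 cortical excitatory neuron genes 10 were above background and 1, the POU factor Pou3f3 (7293, 5749 and 6591), was high. Pou3f3 is also made by cortical progenitors.

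**Figure D1:**
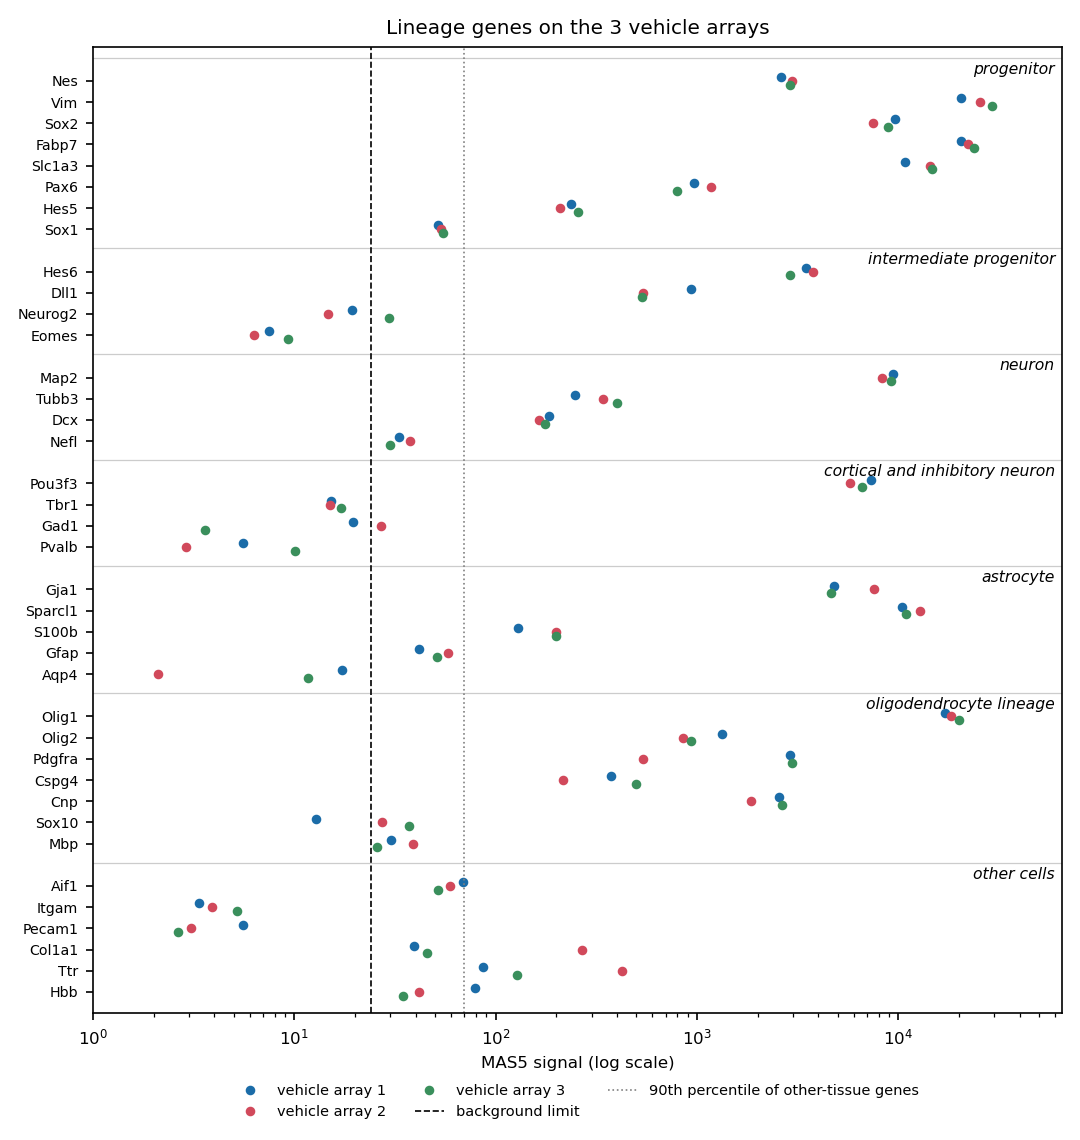
MAS5 signal (log scale) of 38 lineage genes on the 3 vehicle arrays, 1 point per array. The dashed line is the background limit of 24.0 and the dotted line the 90th percentile of genes of other tissues, 70.0. Vim and Fabp7 have signals of 20410 or more on each array, Eomes, Tbr1, Pvalb, Aqp4, Itgam and Pecam1 lie under 24.0 on each, and Pdgfra is lower on vehicle 2 than on the other arrays.

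Of 21 astrocyte genes 17 (81.0%) were above background on all 3 arrays, near the 75.7% of all named genes. With the limit of 70.0, 15 were above it, and 4 of the 21 were high (8.89% of all named genes). The high ones were the matricellular gene Sparcl1 (10370, 12750 and 10920), the gap junction gene Gja1 (4784, 7577 and 4643) and the gliogenic nuclear factors Nfia (4537, 6237 and 5601) and Nfib (3463, 6271 and 6651). Others were faint. Gfap, the astrocyte filament, was at 41.6, 57.9 and 51.2, the water channel Aqp4 at 17.2, 2.11 and 11.7 and the connexin Gjb6 at 0.489, 10.4 and 2.08, and Aqp4 and Gjb6 were at background on all 3 arrays. The calcium-binding protein gene S100b was at 129, 199 and 198, the sodium pump subunit Atp1b2 at 425, 1696 and 1170, and the glycolytic enzyme Aldoc at 846, 811 and 1499.

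The oligodendrocyte precursor list had 12 of 13 genes above background. Olig1, a basic helix-loop-helix factor of this lineage, was among the brightest genes of any list here at 16970, 18310 and 20050 (18440 ± 1543). Its relative Olig2 was at 1327, 856 and 929. The receptor Pdgfra, through which platelet-derived growth factor drives precursor division, was at 2892, 538 and 2970 (2134 ± 1382), so that vehicle 2 stood apart from the other arrays. Sox10, which oligodendrocyte precursors keep through their maturation, was at 12.8, 27.2 and 37.2. Myelin genes were mostly faint, with 0 of 15 high and 8 above background. Mbp, the myelin basic protein gene, was at 30.2, 38.8 and 25.6, Mobp, Mal, Ermn and Enpp6 were at background on all 3 arrays, and the early enzyme Cnp was at 2542, 1856 and 2653.

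Markers of other cell types were looked at in the same way. Of 15 microglia genes 7 exceeded the limit of 24.0 on all 3 arrays and 0 exceeded 70.0 on all 3. Itgam, Ptprc, P2ry12, C1qb and C1qc were at background, and Aif1 was at 68.9, 59.2 and 51.4, with another of its probe sets at background. Of 11 endothelial genes 4 exceeded 24.0 and 0 exceeded 70.0 on all 3 arrays, and the endothelial genes Pecam1, Tie1 and Vwf were at background. Of 5 red blood cell genes Hbb (79.2, 41.8 and 34.8) and Epor (52.4, 64.8 and 78.8) were above background. Of 7 choroid plexus and ependymal genes 5 were above it, including the thyroxine carrier Ttr at 86.7, 426 and 128. Of 18 genes of meningeal cells, pericytes and fibroblasts 5 were above 24.0 on all 3 arrays, and their signals differed between the arrays, as described further on. In bulk RNA a low signal from few cells of a type and one from little RNA per cell cannot be told apart.

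**Figure D2:**
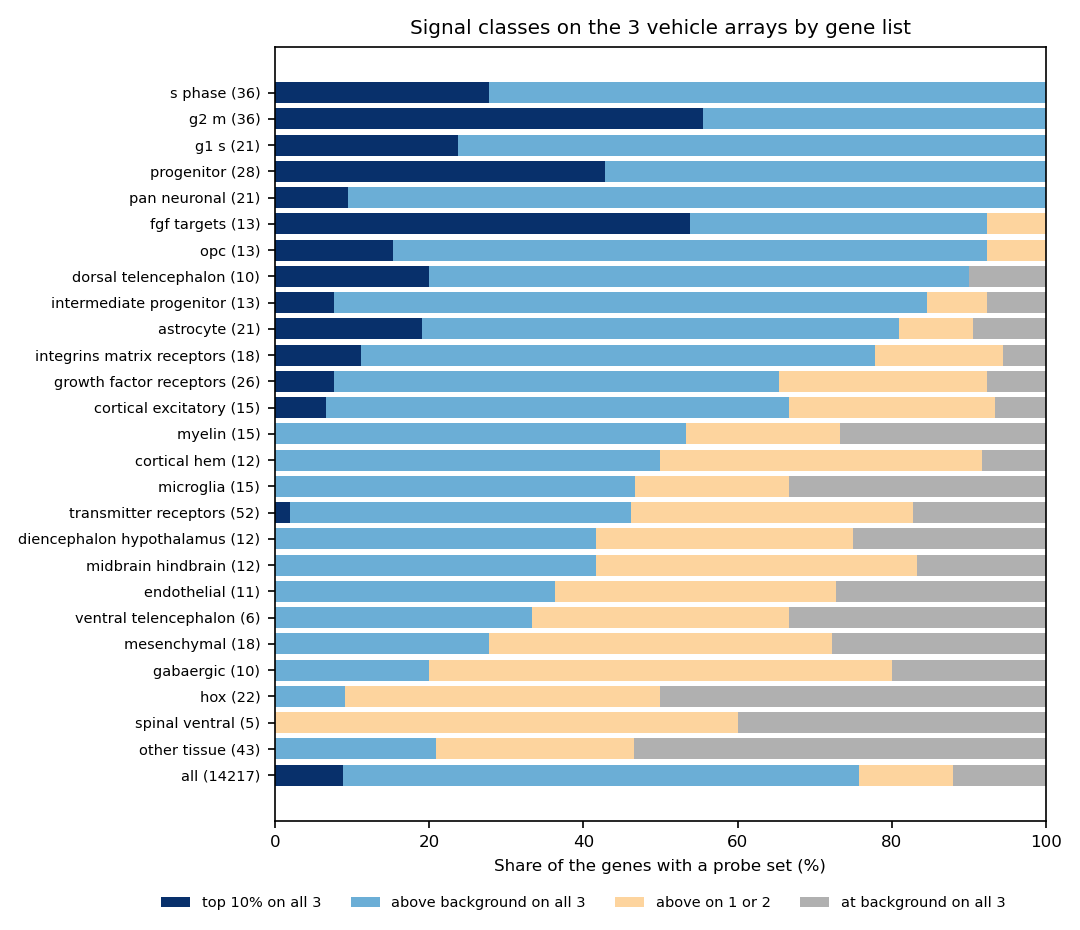
Share of the genes of each list (in percent, number of genes with a probe set in brackets) that were in the top 10% on all 3 vehicle arrays, above background on all 3, above it on 1 or 2, or at background on all 3. All 36 S phase and all 36 G2/M genes and all 28 progenitor genes were above background, against 10766 of all 14217 genes and 9 of 43 genes of other tissues.

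The regional identity of the cells was read from transcription factors. Genes of the dorsal telencephalon were above background in 9 of 10 cases. Lhx2, a LIM homeobox gene that specifies cortex, was high at 4500, 5576 and 5147 (5074 ± 541), and so was the E-protein gene Tcf4 at 6979, 8793 and 8054. Emx2 and Emx1, the homeobox genes of the dorsal telencephalon, were at 812, 927 and 894 and at 142, 207 and 172. The orphan nuclear receptors Nr2f1 and Nr2f2, which pattern the cortex, were at 1282, 1922 and 1674 and at 605, 1530 and 673. Six3, a gene of the most anterior forebrain, was at background (3.85, 6.22 and 13.4).

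Regional genes of the rest of the neural tube were mostly faint. Of 6 ventral telencephalic genes Dlx1 (33.9, 70.8 and 25.3) and Nkx2-1 (29.2, 49.3 and 29.8) were above 24.0 on all 3 arrays, and 0 of the 6 exceeded 70.0 on all 3. Of 22 Hox genes, which mark the hindbrain and spinal cord, 11 were at background and 2 above it, Hoxb3 (75.6, 75.2 and 106) and Hoxb6 (31.2, 35.7 and 51.4). Of 5 ventral spinal cord genes 0 were above background on all 3 arrays. Of 12 midbrain and hindbrain genes 5 were above 24.0 on all 3 arrays. Among them Egr2, which is also an immediate early gene, was at 638, 319 and 633, while Shh and Pitx3 of the same list were at background. Among 12 diencephalic genes Tcf7l2, a Wnt effector with wider expression, was at 2884, 2050 and 2357, and the other 4 above 24.0 on all 3 arrays had no signal over 89.2. Of 12 genes of the cortical hem and roof 6 were above background, of which the bone morphogenetic protein gene Bmp7 (1078, 1003 and 1229) had the highest signal.

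Of 26 growth factor receptors 17 were above background and 2 were high, against 75.7% and 8.89% of all named genes. The high ones were Fgfr1 and Egfr. Fgfr1, the main receptor for bFGF in neural progenitors, was at 2775, 3615 and 3162 (3184 ± 421), and Egfr, the receptor for epidermal growth factor, at 3880, 4817 and 3571 (4089 ± 649). Among the other FGF receptors Fgfr3 was at 1078, 933 and 1084, Fgfr2 at 152, 170 and 134 with another of its probe sets at background, and Fgfr4 at background (14.6, 17.3 and 4.35). The neurotrophin receptor Ntrk2 was at 2341, 2153 and 2789, whereas Ngfr was at background and Met, Kit and Ret passed the limit on 1 array each. The targets that FGF signalling is known to switch on were mostly high, 7 of 13. The feedback inhibitor Spry2 was at 10630, 8868 and 9149, the ERK phosphatase Dusp6 at 5651, 6809 and 6129, and the cyclin Ccnd1 at 11640, 14790 and 14450. Fgf2, the gene of bFGF itself, was at 7.36, 46.9 and 6.10, above background on vehicle 2 alone.

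Receptors of the Notch, bone morphogenetic protein, transforming growth factor β, Wnt and hedgehog pathways were above background in 20 of 23 cases, with 0 of them high. Notch1 was at 1429, 2137 and 1781, the type I receptors Bmpr1a and Tgfbr1 at 1059, 1041 and 954 and at 2270, 2078 and 2051, and the hedgehog transducer Smo at 647, 863 and 775. The Wnt receptors Fzd5 and Fzd6 were at background, while Fzd1, Fzd2 and Fzd3 lay between 342 and 813.

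Among 24 nuclear receptors 15 (62.5%) were above background, against 75.7% of all named genes, and 0 were high. Nr3c1, the glucocorticoid receptor, was at 1064, 862 and 843 (923 ± 122), and Nr3c2, the mineralocorticoid receptor, which also binds corticosterone, was at 18.6, 29.4 and 29.7. The thyroid hormone receptors Thra and Thrb were at 613, 731 and 893 and at 140, 202 and 92.5, and for Thra another probe set was at background. The oestrogen receptors Esr1 and Esr2, the progesterone receptor Pgr and the fatty acid sensor Ppara were at background on all 3 arrays.

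Transmitter receptors were mostly faint. Of 52 genes 24 were above 24.0 on all 3 arrays, 11 were above 70.0 on all 3, and 1 was high. That gene was the AMPA receptor subunit Gria2 (3166, 4610 and 4426), while Gria1 was at background (4.34, 15.8 and 6.58). The NMDA receptor subunit Grin1 was at 83.5, 88.5 and 133, the kainate receptor Grik2 at 380, 230 and 291, the muscarinic receptor Chrm3 at 808, 539 and 556 and the glycine receptor subunit Glrb at 743, 476 and 701. For Glrb another probe set was at background. The dopamine receptor Drd1, the muscarinic receptor Chrm1 and the glycine receptors Glra1, Glra2 and Glra3 were at background. Among 30 other membrane receptors 19 were above background and the thrombin receptor F2r was high, at 5549, 5561 and 5267 (5459 ± 166). Adcyap1r1, the receptor for the peptide PACAP, was at 1335, 852 and 961. Of 18 integrins and other matrix receptors 14 (77.8%) were above background, near the 75.7% of all named genes. The αv and β1 integrin genes Itgav (3814, 3579 and 3609) and Itgb1 (5489, 5804 and 5725) were high, and Itga5, the α5 subunit of the classical fibronectin receptor, was at 73.4, 140 and 128.

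**Figure D3:**
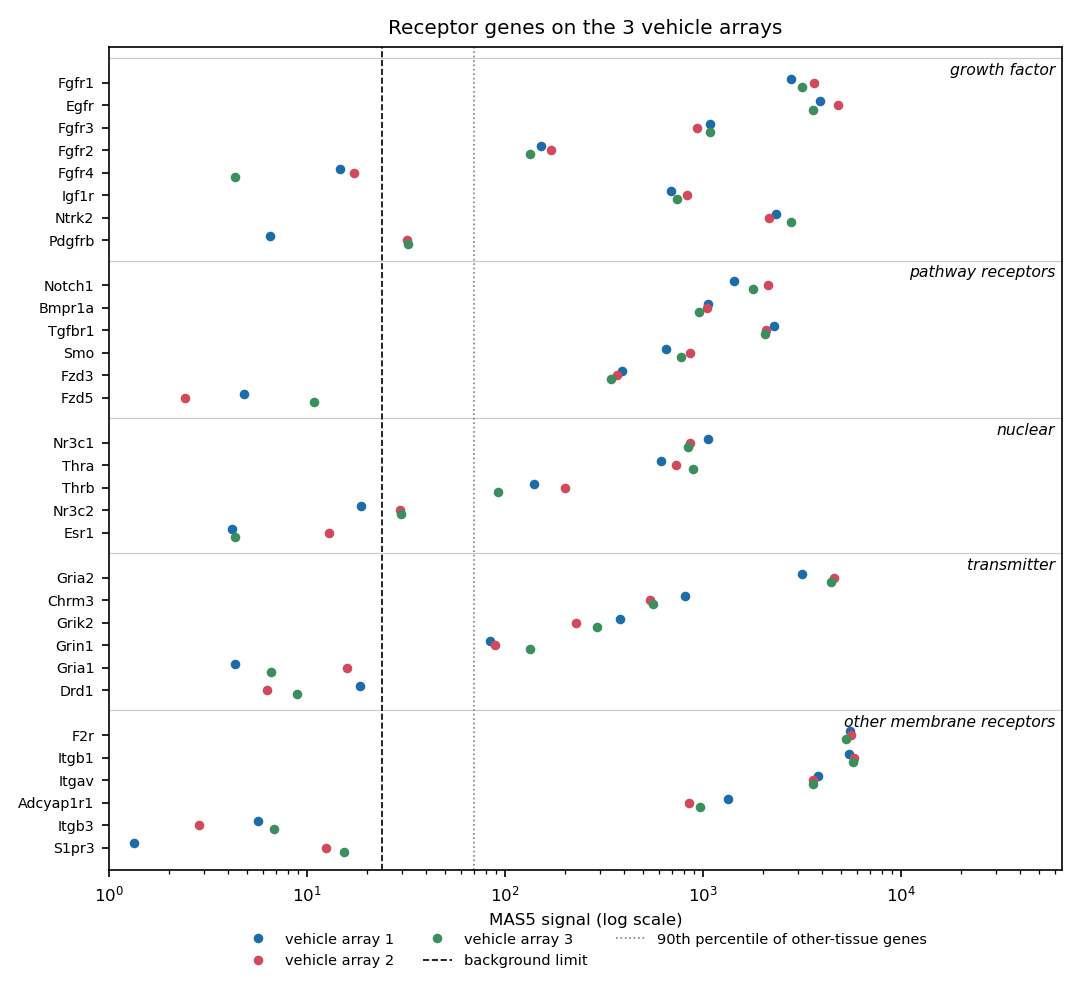
MAS5 signal (log scale) of 31 receptor genes on the 3 vehicle arrays, 1 point per array, with the background limit of 24.0 (dashed) and the 90th percentile of genes of other tissues, 70.0 (dotted). Egfr, Fgfr1, Gria2, F2r, Itgb1 and Itgav are in the top 10% on each array, and Fgfr4, Fzd5, Esr1, Gria1, Drd1, Itgb3 and S1pr3 lie under 24.0 on each.

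Genes of the cell cycle were above background throughout, 21 of 21 for the G1/S step, 36 of 36 for S phase and 36 of 36 for G2 and mitosis. Of these 5, 10 and 20 were high, against 8.89% of all named genes. Mki67, the proliferation antigen, was at 5926, 7328 and 7176 (6810 ± 769). Pcna, the sliding clamp of DNA replication, was at 14470, 15450 and 15210 (15040 ± 513), and Top2a, the topoisomerase of dividing cells, at 4097, 4183 and 4405. Cdk1, the mitotic kinase, was at 5806, 5962 and 5791 (5853 ± 94.7), a spread of a factor of 1.03.

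The G1 genes were uneven. Ccnd1, Ccnd2 (4767, 7027 and 5842) and the kinase Cdk4 (8848, 8896 and 8724) were high, while Cdk6, which pairs with the same cyclins, was at 33.1, 29.2 and 44.0. Among 14 inhibitors and growth arrest genes Cdkn1b, the p27 inhibitor, was high at 8372, 7692 and 6981, and so was the antiproliferative gene Btg1 at 8314, 6510 and 6418. Cdkn2a, of the p16 and ARF locus, was at 98.2, 171 and 97.1, and Cdkn2b at 6.19, 80.0 and 27.8. The median difference between the highest and the lowest vehicle array was 0.17 for G2 and mitosis genes and 0.22 for S phase genes on the log2(signal + 28.6) scale, against 0.28 for all 9904 genes past the filter. These groups are not matched for signal. The median signal was 3160 for G2 and mitosis genes and 2240 for S phase genes, against 300 for all named genes, and brighter genes varied less. Whether the lists differed less than other genes of like signal was not tested. Genes of cholesterol synthesis were bright too, with 10 of 15 high and signals of 14340, 13240 and 13070 for the methyl sterol oxidase Msmo1. The interferon-induced gene Isg15 was at background, and the heat shock gene Hspb1 was at 5.88, 11.5 and 4.09.

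How the 3 arrays differed was described next, on log2(signal + 28.6), where the added constant damps the noise of low signals and so understates the differences of low genes. Between at least 1 pair of vehicle arrays 303 of 9904 genes (3.06%) differed by 2-fold or more. Vehicle 2 was the highest for 158 of them, vehicle 3 for 93 and vehicle 1 for 52, while vehicle 1 was the lowest for 187. Vehicle 1 and 2 differed 2-fold for 205 genes, vehicle 2 and 3 for 120, and vehicle 1 and 3 for 93. Each couple has 1 vehicle array, so such a difference has no replicate within the group, and the array of the same couple treated with corticosterone was the second measurement. The highest couple was the same on the vehicle and the corticosterone arrays for 216 of the 303 genes (71.3%), against 54.3% of all 9904.

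The 25 genes with the largest range over the vehicle arrays were chosen on these values, which are given as a description. Crym, which encodes a thyroid hormone-binding protein, had the largest range, with vehicle signals of 45.1, 1116 and 177 and, in the order of the couples, corticosterone signals of 182, 1249 and 331. Hr, a corepressor gene induced by thyroid hormone, had vehicle signals of 123, 1011 and 210, beside 38.4, 569 and 160 in the hormone-treated partners. Klf9, a transcription factor induced by thyroid hormone and by glucocorticoids, was at 648, 4524 and 1418 with vehicle and 1407, 6161 and 2989 with corticosterone. For Crym, Hr and Klf9 couple 2 was the highest and couple 1 the lowest in both treatments. These 3 genes were picked from the 25 and do not stand for the others. S100a6, Col3a1 and Postn had larger ranges than Hr, and couple 3 was the lowest for each of them with corticosterone. A part of thyroid hormone in these ranges was not tested. Of the 25 genes vehicle 2 was the highest for 19 and vehicle 1 the lowest for 18. The highest couple was the same with corticosterone for 24 of them, and the whole order for 12 (48.0%). Genes that were highest on another array included the COPII coat gene Sec31a (152, 716 and 827), the phosphofructokinase Pfkl (173, 412 and 832) and Inava (168, 23.2 and 20.0).

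A test of the couple used all 6 arrays, with treatment as a second term (limma, F test over the 3 couples). At a Benjamini-Hochberg adjusted p under 0.05 it called 2819 of 18625 probe sets (15.1%), and 1496 of the 9904 genes by their brightest probe set (15.1%). The test has 2 residual degrees of freedom and borrows the spread of probe sets of like signal. Without that intensity trend 64 probe sets passed, and without the treatment term 4 did. Of the 405 listed genes past the filter 129 were called, and 7 of them without the trend. The p-values below therefore rest largely on the spread shared across probe sets. Whether the couples are separate cultures or separate animals is not given in the labels, so the p-values measure only the spread between these samples, which may be technical.

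The couples that were most often highest and lowest differed between the gene lists of different lineages. Genes of a list can vary together and are not replicates of a couple, so counts of members describe these samples only. Of the 17 astrocyte genes past the filter vehicle 2 was the highest for 13 and vehicle 1 the lowest for 14. Among all 9904 genes these numbers were 3383 and 4012. On the corticosterone arrays couple 2 was the highest for 12, while couple 3 was the lowest for 9 and couple 1 for 8. The couple test called 9 of the 17 (15.1% of all 9904 genes). Of the 9, 8 had couple 2 highest (5% of all 9904 genes) and 6 had couple 1 lowest (7.37%). Without couple 2, 16 genes of the list passed the filter and 4 were called. Atp1b2, the β2 subunit of the sodium pump, had signals of 425, 1696 and 1170 with vehicle and 935, 3282 and 2145 with corticosterone. Its couples deviated from their mean by −1.05, 0.81 and 0.24 (log2, SE 0.07, limma adjusted p = 9.6e-06, and 0.035 without the trend), in the same order in both treatments. Nfix, a nuclear factor of the late progenitor and glial programme, was at 1006, 3307 and 1946 with vehicle and deviated by −0.84, 0.75 and 0.09 (SE 0.06, limma adjusted p = 1.2e-05, and 0.040 without the trend). Both calls held without any 1 couple (limma adjusted p from 1.4e-05 to 0.0013 for Atp1b2 and from 1.6e-05 to 0.0019 for Nfix). Nfib deviated by −0.59, 0.24 and 0.35 (limma adjusted p = 5.6e-05), and this call ended without couple 1 (0.49) and without the trend (0.054).

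Oligodendrocyte precursor genes had another order. Vehicle 2 was the lowest for 10 of the 12 past the filter (3152 of all 9904 genes). Of the 7 called, 5 had couple 2 lowest (4.79% of all 9904 genes) and 5 had couple 3 highest (4.86%), and 2 were called without couple 2. Pdgfra, one of the 25 genes chosen for their range, had corticosterone signals of 633, 214 and 1000, so couple 2 was the lowest there too. C1ql1, a secreted complement-like protein gene of these precursors, was at 375, 129 and 383 with vehicle, and its couples deviated by 0.19, −0.79 and 0.61 (SE 0.16, limma adjusted p = 0.0055). The brain proteoglycan Bcan was at 1864, 1133 and 2187 and deviated by 0.02, −0.45 and 0.43 (SE 0.08, limma adjusted p = 0.0021). Gal3st1, an enzyme of myelin sulphatide synthesis, was at 765, 305 and 907 with vehicle and deviated by 0.03, −0.96 and 0.93 (SE 0.17, limma adjusted p = 0.0017). The calls of C1ql1, Bcan and Gal3st1 ended without couple 2 (limma adjusted p = 0.28, 0.059 and 0.072) and without the trend (0.073, 0.083 and 0.081). Olig2, at 1327, 856 and 929, was not called (limma adjusted p = 0.15).

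Genes of the forebrain and dorsal telencephalon list were highest on vehicle 2 in 8 of 9 cases and lowest on vehicle 1 in 8. Among all 9904 genes these numbers were 3383 and 4012. The couple test called 3 of the 9 (15.1% of all 9904 genes). Nr2f2, with corticosterone signals of 553, 1546 and 650 beside its vehicle signals of 605, 1530 and 673, deviated by −0.52, 0.85 and −0.33 (SE 0.07, limma adjusted p = 5.6e-05, and 0.040 without the trend). Without couple 2 it was not called (limma adjusted p = 0.37). Lhx2, Emx2 and Pax6 were not called (limma adjusted p = 0.18, 0.25 and 0.081). Outside this list, Celsr2, a cadherin receptor of neural progenitors and neurons, was at 183, 511 and 653. Celsr2 deviated by −0.96, 0.38 and 0.58 (SE 0.09, limma adjusted p = 8.7e-05), a call that ended without couple 1 (0.47). The FGF target Etv4 was at 681, 1728 and 1119 and deviated by −0.61, 0.65 and −0.04 (SE 0.07, limma adjusted p = 9.8e-05, and 0.052 without the trend). Of the 28 progenitor genes 13 were called (15.1% of all 9904 genes). Of these 13, 8 had couple 1 lowest (7.37% of all 9904 genes) and 7 had couple 2 highest (5%). Nes and Fabp7 were not called (limma adjusted p = 0.23 and 0.22), and the couple deviations of Vim and Sox2 lay between −0.22 and 0.18 (limma adjusted p = 0.0077 and 0.017).

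**Figure D4:**
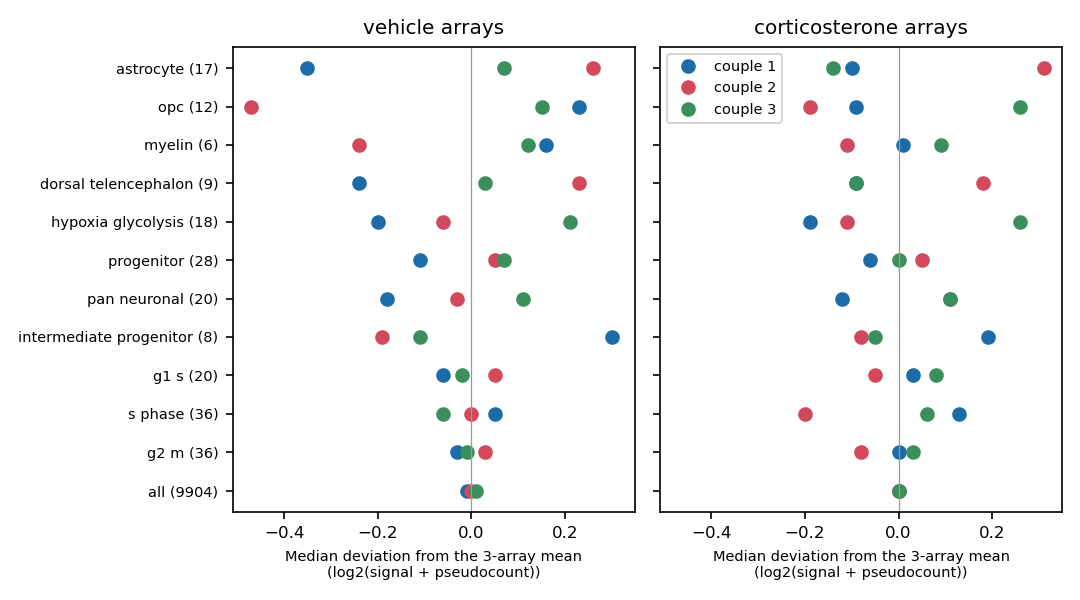
Median over each list of the deviation of an array from the mean of the 3 arrays of its treatment, on log2(signal + 28.6), for genes past the filter (number in brackets), with 1 point per couple and the vehicle and corticosterone arrays in separate panels. With vehicle couple 2 lies at 0.26 for astrocyte and −0.47 for oligodendrocyte precursor genes (opc), couple 3 lies at 0.21 for hypoxia and glycolysis genes, and the medians over all genes lie between −0.01 and 0.01.

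Several fibroblast and meningeal genes were highest in couple 2 as well. Col3a1, a fibrillar collagen, had vehicle signals of 40.8, 577 and 93.7 and corticosterone signals of 94.1, 928 and 61.9. Lum, a proteoglycan of connective tissue, was at 0.483, 136 and 0.817, and Mgp, a matrix protein, at 3.70, 162 and 19.1, so that both were at background on vehicle 1 and 3. Col1a2, another fibrillar collagen gene, was at 29.1, 196 and 35.9, and passed the filter on low signals only with couple 2 included, so no test of it is given. The 18 genes of the list summed to 602, 1948 and 698 on the vehicle arrays, and to 1564, 3874 and 990 on the corticosterone arrays. Other members did not share this pattern. The smooth muscle actin Acta2 was at 226, 159 and 223, and the fibroblast and meningeal genes Dcn, Twist1 and Foxc1 and the pericyte transporter Abcc9 were at background on all 3 arrays. The part of such cells in the other differences of couple 2 was not tested.

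Genes induced by low oxygen and genes of glycolysis were highest in couple 3. Of 18 genes past the filter vehicle 3 was the highest for 14 (3171 of all 9904 genes). The list summed to 53103, 57981 and 67062 with vehicle, beside 57346, 58414 and 72800 with corticosterone. The couple test called 12 of the 18 (15.1% of all 9904 genes). Of the 12, 11 had couple 3 highest (4.86% of all 9904 genes) and 9 had couple 1 lowest (7.37%). Without couple 3, 5 were called, and without the trend 2. Pdk1, the kinase that shuts pyruvate out of the mitochondria, was at 125, 166 and 436 with vehicle and 147, 184 and 569 with corticosterone, and deviated by −0.66, −0.36 and 1.02 (SE 0.11, limma adjusted p = 2.1e-04, and 0.036 without the trend). Bnip3, a mitophagy gene, was at 1471, 1281 and 2760 with vehicle and 1285, 1496 and 3219 with corticosterone, and deviated by −0.37, −0.36 and 0.73 (SE 0.08, limma adjusted p = 2.0e-04, and 0.062 without the trend). The glucose transporter Slc2a1 was at 342, 424 and 768 with vehicle and 520, 557 and 851 with corticosterone, and deviated by −0.36, −0.17 and 0.53 (SE 0.09, limma adjusted p = 0.0028). The calls of Pdk1, Bnip3 and Slc2a1 ended without couple 3 (limma adjusted p = 0.27, 0.96 and 0.34). The oxygen sensor Egln3 (542, 867 and 754) and the hexokinase Hk2 (161, 95.7 and 107) did not have vehicle 3 as the highest array.

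The promoters of this list were searched for ACGTG on both strands (CACGT on the other), the core of the hypoxia response element. The stretch CACGTG holds both and is also read as an E-box. Of 16 listed genes with a promoter in the RefSeq table (assembly GRCr8, 250 bases before to 50 after the start site), 10 held a match (62.5%), against 5746 of 27457 genes with any promoter there (20.9%) and 6444 of all 33469 promoters (19.3%). The genes with a match were Aldoa, Ankrd37, Bnip3, Car9, Ddit4, Egln1, Eno1, Ldha, Pdk1 and Slc2a1, and those without were Adm, Egln3, Hk2, Pfkl, Pfkp and Vegfa. The list was made of known targets of low oxygen, for which this element is common, so the share is a description and a match is not a bound site. Pdk1 has a match and was called with couple 3 highest, but its promoter is not shown. The stretches before the start sites of Bnip3, Slc2a1 and Ldha are shown as picked examples of genes called with couple 3 highest. Each match in these stretches is in capitals on the strand of the gene. They lie at chr1:203155016-203155101 (minus strand) for Bnip3, chr5:138002431-138002515 (plus strand) for Slc2a1 and chr1:106507965-106508063 (plus strand) for Ldha, upstream of the first exon.
Bnip3: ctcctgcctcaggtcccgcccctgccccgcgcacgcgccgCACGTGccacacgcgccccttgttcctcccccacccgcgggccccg
Slc2a1: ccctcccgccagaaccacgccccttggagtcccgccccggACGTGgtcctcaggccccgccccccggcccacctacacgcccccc
Ldha: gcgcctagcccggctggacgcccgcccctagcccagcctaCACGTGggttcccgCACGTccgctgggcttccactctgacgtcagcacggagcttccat
The CACGTG of Bnip3 counts as 2 overlapping matches, Slc2a1 holds 1 match, and Ldha, the lactate dehydrogenase gene (9487, 10450 and 12370 with vehicle, limma adjusted p = 0.020 for the couple), holds 3. Pfkl, in which couple 3 was also the highest, has no such letters in this window.

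**Figure D5:**
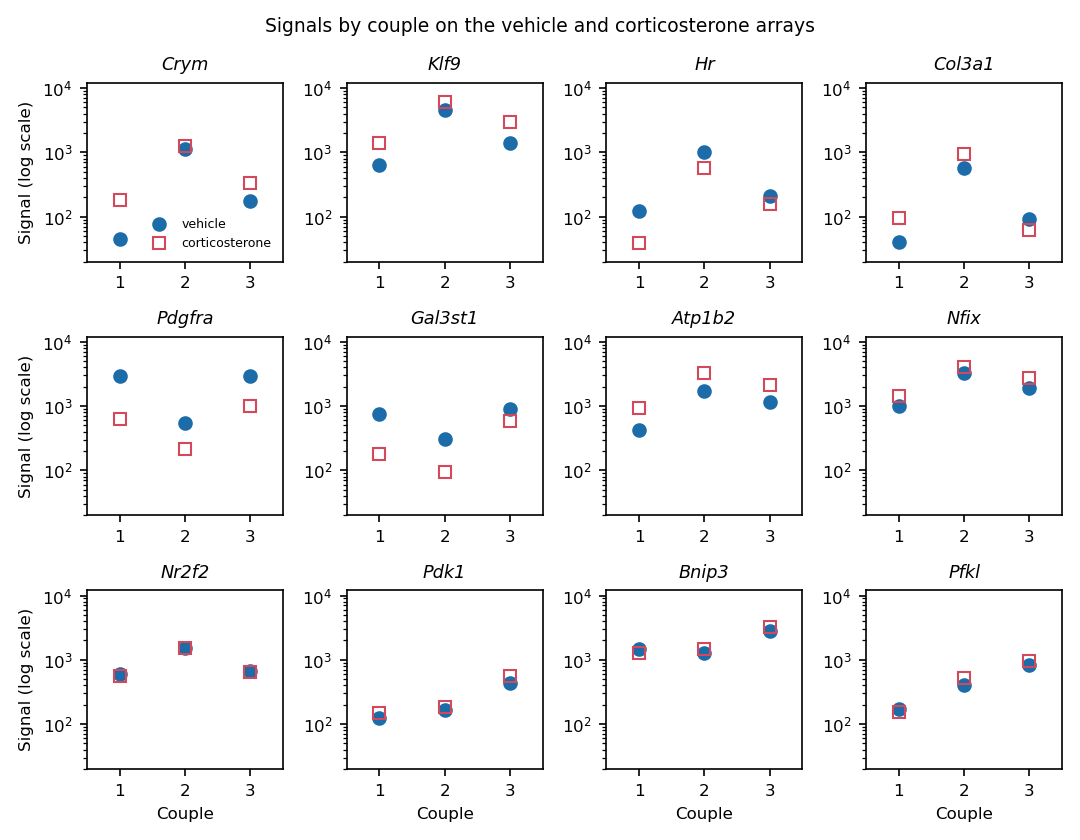
MAS5 signal (log scale) of 12 genes by couple on the vehicle arrays (filled circles) and the corticosterone arrays (open squares), 1 array per point. Couple 2 is the highest in both treatments for Crym, Klf9, Hr, Col3a1, Atp1b2, Nfix and Nr2f2 and the lowest for Pdgfra and Gal3st1, and couple 3 is the highest for Pdk1, Bnip3 and Pfkl.

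The couple test was read for the cell cycle lists as well. Whether their shares of called genes differ from each other or from that of all genes was not tested. Of 36 G2 and mitosis genes 3 were called (8.3%) and of 36 S phase genes 8 (22.2%), against 15.1% of all 9904 genes. Of these 8, 7 had couple 1 highest (520 of the 9904) and 7 had couple 2 lowest (4.79%). On the corticosterone arrays couple 2 was the lowest for 33 of the 36 S phase genes, whereas vehicle 2 was the lowest for 8 and vehicle 3 for 19. Without couple 1 limma called 0 of either list, with 3 S phase and 4 G2 and mitosis genes at an unadjusted p under 0.05. Prim1, the primase subunit that starts DNA synthesis, was at 4940, 3538 and 3206 with vehicle and deviated by 0.40, −0.20 and −0.20 (SE 0.06, limma adjusted p = 0.0018, and 0.99 without couple 1). Pcna, Cdk1, Top2a and Mcm2 were not called (limma adjusted p = 0.43, 0.62, 0.17 and 0.78). Of 20 G1/S genes 5 were called. Of the 14 inhibitors and growth arrest genes 9 were called (15.1% among all genes). Of these 9, 5 had couple 1 highest (520 of all 9904 genes) and 6 had couple 3 lowest (292 of 9904). The 9 include Cdkn2b, which passed the filter on low signals only with couple 2 included. Without couple 2, 13 genes of the list passed the filter and 2 were called. Cdkn1b, also among the 9, deviated by 0.16, −0.03 and −0.13 (SE 0.05, limma adjusted p = 0.040, and 0.53 without couple 1). With median centring of the arrays 15 S phase and 6 G2 and mitosis genes were called. Vehicle 1 had the lowest spiked-control mean and the lowest Actb 3′ to 5′ ratio, as did the corticosterone array of couple 1 among its group, and their part in these differences was not tested.

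Of 3 listed genes of the X inactivation centre and the Y chromosome the couple test called 2, Xist and Eif2s3y (15.1% of all 9904 genes). Xist, the X-inactivation RNA of female cells, was at 6028, 2508 and 3020 with vehicle and 3892, 2068 and 3269 with corticosterone (couple deviations 0.57, −0.51 and −0.05, SE 0.09, limma adjusted p = 0.0015, and 0.088 without the trend). The Y-linked gene Eif2s3y was at 1358, 1817 and 1931 with vehicle and 815, 2150 and 1625 with corticosterone (−0.54, 0.35 and 0.19, SE 0.12, limma adjusted p = 0.0099, and 0.54 without couple 1). Both transcripts were above background on all 6 arrays, so each sample held RNA with an X-inactivation and a Y-linked signal.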

How the data were processed

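RNA was extracted with TRIzol, and biotinylated cRNA was made from 3 µg of it with an oligo(dT)-T7 primer, per the labels' protocols, so signals are weighted towards the 3′ end of transcripts. The authors deposited 1 signal intensity for each probe set and array, unlogged and made with MAS5, per the submitters' processing notes. The version of MAS5 and its detection calls were not given in the sources used here. With 2% of values trimmed at either end, every array had a mean of 500.2, so the arrays were scaled alike. With 3 arrays the number of samples limits the precision.

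Of 31099 probe sets, 57 controls were left out, and 20826 had 1 symbol in the platform annotation, 436 several and 9780 none. Entrez identifiers of 20758 matched the GRCr8 gene table, and 0 symbols were updated. The 14217 genes include 4525 with several probe sets, and for 517 of these another probe set was at background while one was above it. Levels were described without a test. Differences between couples were tested with limma 3.58.1 in R 4.3.3 (lmFit, eBayes with an intensity trend) on log2(signal + 28.6), the 25th percentile of all values, with couple and treatment as terms. The dimmest 40% of probe sets (mean log2 value over all arrays, a signal of 63.6) were left out, and p-values were adjusted over the remaining 18625. A decision was read at 0.05. In simulated data of this size the couple test recovered 99% of 2-fold and 100% of 4-fold changes and called 0.119% of unchanged probe sets. The simulated noise was normal and independent between probe sets, with the spread taken from the same fit. These rates therefore hold under the model of the test and cannot show how many calls in the measured data are right.

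The members and the 39 gene lists (679 genes with a probe set) were chosen with earlier results of these data known. The text names a fixed set of key genes, up to 4 of the brightest, faintest and most clearly called members of each list, and the 25 genes with the largest range, with others named after their values were seen. Other background limits, probe set choices, scalings, filters and pseudocounts, and leaving out each couple, were tried.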

Additional observations from a re-analysis of the deposited data

How the results depend on the processing

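No paired analysis was possible because the vehicle arrays are a single group and the number of the couple is itself what was tested. Genes above background on all 3 vehicle arrays numbered 9202 to 11127 over the alternatives (10766 as reported). Genes at background numbered 1611 to 2405, except for 4150 with a limit of 70.0 from the genes of other tissues (1705 as reported). Genes that differed 2-fold between vehicle arrays (303 as reported) numbered 718 without the filter, 139 with 60% of probe sets left out, 109 with a pseudocount 4 times as large, and 93 to 205 with 1 array left out. Probe sets that differed between couples in limma (2819 as reported) numbered 1148 without the filter, 64 without the intensity trend, 4 without the treatment term, and 810 (without couple 1) to 2790 (without couple 3) with 1 couple left out. The drop without the filter comes with 31042 probe sets tested, and the cause of the others was not tested. With 1 couple left out the fit rests on a single residual comparison and the shared spread. Among the 129 listed genes called, 61 were also called without couple 1, 50 without couple 2 and 98 without couple 3, 121 with quantile normalization and 111 with median centring. The background limit moved the count above background for 15 of 39 lists at 70.0 and for 3 at 32.6. Signals under about 70.0 limit what can be said of faint genes.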
